A study of Mus musculus with 6 samples.

Results

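Tbx2 and Tbx3 are 2 closely related T-box transcription factor genes, and their transcripts were followed in mouse Melb-a melanoblasts given a bromodomain inhibitor. They were taken as the rows of the deposited read count table whose gene IDs map to these symbols, Tbx2 (ENSMUSG00000000093, chromosome 11) and Tbx3 (ENSMUSG00000018604, chromosome 5). These are 2 of 35275 rows, and both passed the filter on low counts. Melb-a is an immortal melanoblast line, labelled as C57BL/6J skin, so every library comes from the same line. All cells were moved to a differentiation medium with 10% serum, 2 nM of the melanocortin analog NDP-alpha MSH and 200 nM of the phorbol ester phorbol-myristate-acetate. The medium also held DMSO, the vehicle (3 samples), or 10 µM iBRD9 (3 samples), for 48 h. iBRD9 is an inhibitor of the BRD9 bromodomain, part of a SWI/SNF chromatin remodeling complex, and it was used at a single dose.

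T-box factors bind DNA through the domain that names the family. TBX2 and TBX3 act mostly as repressors. They are known for holding down the Cdkn2a product p19Arf and the cyclin-dependent kinase inhibitor gene Cdkn1a, which lets cells pass the checkpoint that leads to senescence, and both are found at raised levels in melanoma. In pigment cells, TBX2 lies downstream of the lineage factor MITF and is reported to repress the melanin enzyme gene Tyrp1. TBX3 is reported to repress the adhesion gene Cdh1, and phorbol esters and TGF-beta are reported inducers of its gene.

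The libraries held 22846391 to 29680952 counts, and levels below are in CPM, read counts divided by a library depth corrected with TMM (trimmed mean of M values). Genes count as called when edgeR's quasi-likelihood test gives a Benjamini-Hochberg adjusted p below 0.05 over all 13602 tested genes. That rule called 60.7% of tested genes, 29.8% higher and 30.9% lower with iBRD9, and the median log2 fold change over all tested genes was 0.01. With library size as the sole scaling the median was 0.11, with 4999 genes called higher and 3385 lower against 4057 and 4205. DMSO replicate 1 differed most within its group: the chi-square per degree of freedom was 29.2 and 37.5 between it and the other two, and 3.06 between those. Mitochondrial genes took 3.42% to 3.71% of counts with DMSO and 2.57% to 3.15% with iBRD9.

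Both transcripts were higher with iBRD9, Tbx3 by more than Tbx2. Tbx3 stood at 3.91, 3.27 and 3.33 CPM in DMSO replicates 1 to 3, from 90, 83 and 79 counts. With iBRD9 it stood at 5.94, 5.76 and 6.46 CPM, from 183, 144 and 153 counts. The lowest iBRD9 library lay above the highest DMSO library. The means were 3.50 ± 0.351 and 6.06 ± 0.362 CPM (SD, n = 3), a 1.73-fold rise. Its log2 fold change was 0.79 (SE 0.133, 95% interval 0.49 to 1.09, edgeR adjusted p = 0.00117). Counting error alone came to 7.39% to 11.3% of the value in each library, since Tbx3 was measured on few reads. The exact Poisson 95% intervals of the groups did not overlap, the highest DMSO bound being 4.80 CPM and the lowest iBRD9 bound 4.86 CPM; they cover counting error only. Tbx3 rose under all 14 alternatives, with log2 fold changes of 0.73 to 0.89 and adjusted p of 8.44e-06 to 0.00850.

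Tbx2 was the more abundant transcript of the pair and moved less. DMSO replicates 1 to 3 had 33.5, 31.9 and 31.9 CPM of Tbx2, from 771, 809 and 756 counts. With iBRD9 the values were 36.6, 42.0 and 35.5 CPM, from 1126, 1050 and 842 counts. Again the groups did not overlap, but the gap between the highest DMSO library and the lowest iBRD9 library was small, and iBRD9 replicate 2 was the highest. The means were 32.4 ± 0.914 and 38.0 ± 3.48 CPM (SD, n = 3), a 1.17-fold difference. The log2 fold change was 0.23 (SE 0.080, 95% interval 0.05 to 0.41, edgeR adjusted p = 0.0340).

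The call of Tbx2 as higher was not kept in every alternative. It was lost without DMSO replicate 2 (0.21, edgeR adjusted p = 0.111), without DMSO replicate 3 (0.21, 0.0904), without iBRD9 replicate 1 (0.26, 0.0579) and without iBRD9 replicate 2 (0.15, 0.151). It was also lost with the replicate number as a block (0.23, 0.0538), and over all alternatives its adjusted p ran from 0.00268 to 0.151. All 14 alternatives gave Tbx2 a value above 0. Without DMSO replicate 2 or 3, or iBRD9 replicate 1 or 2, 3235 to 3517 genes were called higher, against 4057 with all libraries. Without iBRD9 replicate 3, 3319 genes were called higher, and Tbx2 kept its call (0.27, edgeR adjusted p = 0.0417). Without DMSO replicate 1, 5159 genes were called higher, and Tbx2 kept its call there too (0.25, edgeR adjusted p = 0.00268). Where the call was lost on leaving out a library, the value of Tbx2 was smaller except without iBRD9 replicate 1. Why the call was lost was not tested. Read against the background, groups that do not overlap were found in 68.0% of tested genes, and in 33.9% with iBRD9 on the higher side. A larger rise than that of Tbx2 was measured in 36.0% of tested genes, and a larger rise than that of Tbx3 in 14.02%. In bulk RNA a larger share of cells with a transcript and more transcript per cell cannot be told apart.

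**Figure D1:**
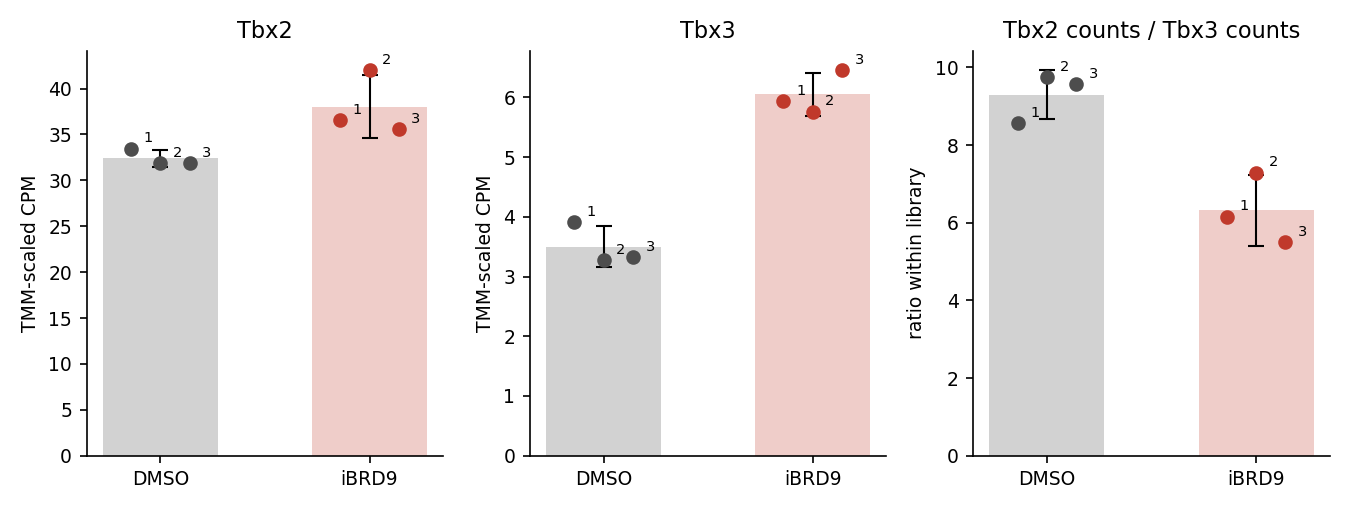
Levels of Tbx2 and Tbx3 (TMM-scaled CPM) and the ratio of their counts within each library; dots are the 3 libraries of each group, numbered by replicate, bars are means and whiskers the SD. Tbx3 goes from 3.50 to 6.06 CPM and Tbx2 from 32.4 to 38.0 CPM, and the ratio is lower in each iBRD9 library than in any DMSO library.

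The ratio of Tbx2 to Tbx3 counts, which needs no scaling between libraries, was 8.57, 9.75 and 9.57 with DMSO. It was 6.15, 7.29 and 5.50 with iBRD9, lower in 3 of 3 libraries than in any DMSO library. On the log2 scale the difference, iBRD9 minus DMSO, was -0.56 (SE 0.132, with means of 3.21 ± 0.101 and 2.65 ± 0.204; SD, n = 3; two-sided exact permutation p = 0.1, the smallest that 3 against 3 libraries can give). That permutation test therefore could not place this difference under 0.05. Leaving out any 1 library kept the direction, with differences of -0.67 to -0.47.

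Set beside the rest of the family, Tbx2 was a main T-box transcript of these cells and Tbx3 a minor one. All 17 mouse T-box genes are in the table. Of these 6 passed the filter, among them Tbx2 and Tbx3, and edgeR called 5 higher and 0 lower (0 at an unadjusted p under 0.05, and 0 with DESeq2 or limma-voom). Among all tested genes 29.8% were called higher and 30.9% lower. Tbx6 and Tbx10, both called higher, passed the filter through their iBRD9 libraries, so the count does not describe the family. Tbx4 was not called (-0.36, edgeR adjusted p = 0.240). The count of T-box genes called higher was 3 without DMSO replicate 2 or without iBRD9 replicate 1. The other 11 genes had at most 6 counts in any library, and 4 of them, Tbx1, Tbx5, Tbx18 and Tbx22, were at 0 in all 6. A count of 0 allows up to 3 counts, 0.0974 to 0.130 CPM per library.

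Levels of different genes were compared as CPM per kilobase of annotated exon. On that scale Tbx2 had 8.94 ± 0.252 with DMSO and Mga, a large T-box protein that also pairs with MAX, had 8.93 ± 0.398; these do not differ beyond their spread (SD, n = 3). Tbx4, a limb factor whose gene lies near Tbx2, followed at 0.886 ± 0.181. Tbx3 came next at 0.529 ± 0.0529. The mesoderm factor gene Tbx6 had 0.264 ± 0.105 and Tbx10 had 0.0937 ± 0.00457, and from Tbx4 downward no library of a gene overlapped those of the next. With iBRD9, Tbx3 at 0.914 ± 0.0546 lay above Tbx4 at 0.683 ± 0.196, the reverse of their order with DMSO. The libraries again did not overlap, but the lowest Tbx3 value, 0.870, lay just above the highest Tbx4 value, 0.859. That gap is narrower than the counting error of Tbx3. Tbx10 and Tbx6 then overlapped, and Mga at 11.1 ± 0.449 and Tbx2 at 10.5 ± 0.960 remained close to each other.

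The other T-box genes that were called were Mga, Tbx6 and Tbx10. Mga went from 137 ± 6.11 to 170 ± 6.89 CPM (log2 fold change 0.31, SE 0.059, adjusted p = 0.00231 by edgeR). Tbx10 had 4, 4 and 4 counts with DMSO and 35, 27 and 29 with iBRD9, and Tbx6 had 16, 9 and 9 against 36, 23 and 25. All 3 iBRD9 libraries of each were above the filter's level, but 0 DMSO libraries of Tbx10 and 1 of Tbx6, so both passed through the group in which they are high and the count above does not describe the family. Tbx6 was not called if DMSO replicate 2 was left out (0.96, edgeR adjusted p = 0.0557) or if iBRD9 replicate 1 was left out (1.05, edgeR adjusted p = 0.0559; from 0.000939 to 0.0559 over its alternatives).

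**Figure D2:**
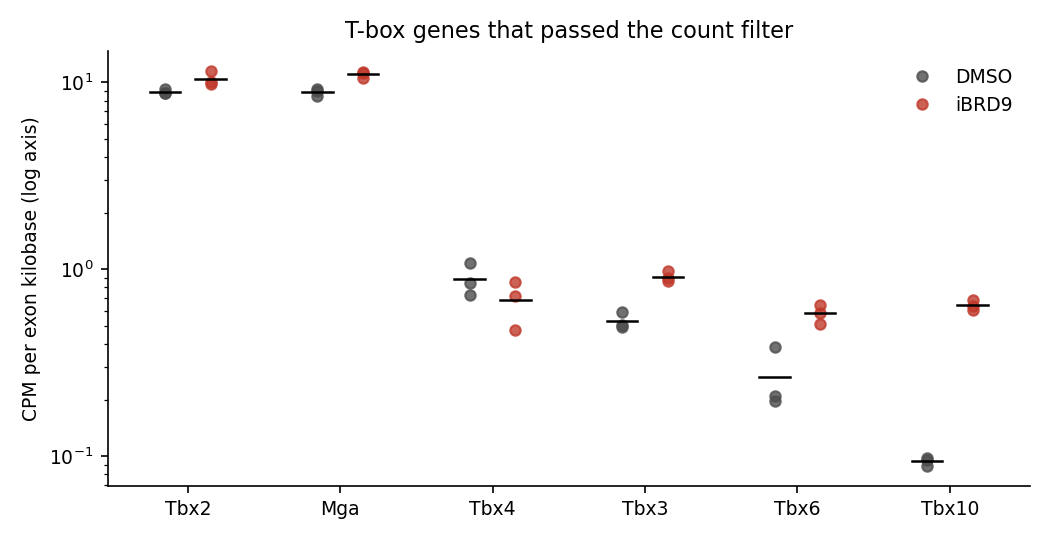
CPM per exon kilobase, on a log axis, of the 6 T-box genes that passed the filter; dots are libraries, grey for DMSO and red for iBRD9, and black lines are group means. Tbx2 and Mga lie near 9 to 11, well above Tbx3, which rises from 0.529 to 0.914 and passes Tbx4.

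Genes around the pair were at or near 0 at the Tbx3 locus and more varied at the Tbx2 locus. At the Tbx3 locus, the antisense gene Tbx3os1 overlaps Tbx3 in the annotation and had 0 to 3 counts per library. Since the kit is not described as marking strand, its reads and those of Tbx3 could not be told apart where the genes overlap. Tbx3os2, on the other side, had 0 to 3 counts, and its neighbour Tbx5 had 0. At the Tbx2 locus, Bcas3 stood at 9.91 ± 1.77 and 11.7 ± 1.62 CPM (SD, n = 3) with a log2 fold change of 0.24 (edgeR adjusted p = 0.198). The noncoding gene 2610027K06Rik, which runs the other way just before Tbx2, had 41, 20 and 15 counts with DMSO and 60, 25 and 29 with iBRD9 (0.41, edgeR adjusted p = 0.415). Without DMSO replicate 1 it was called higher (0.98, edgeR adjusted p = 0.0115, the lowest value among the alternatives).

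**Figure D3:**
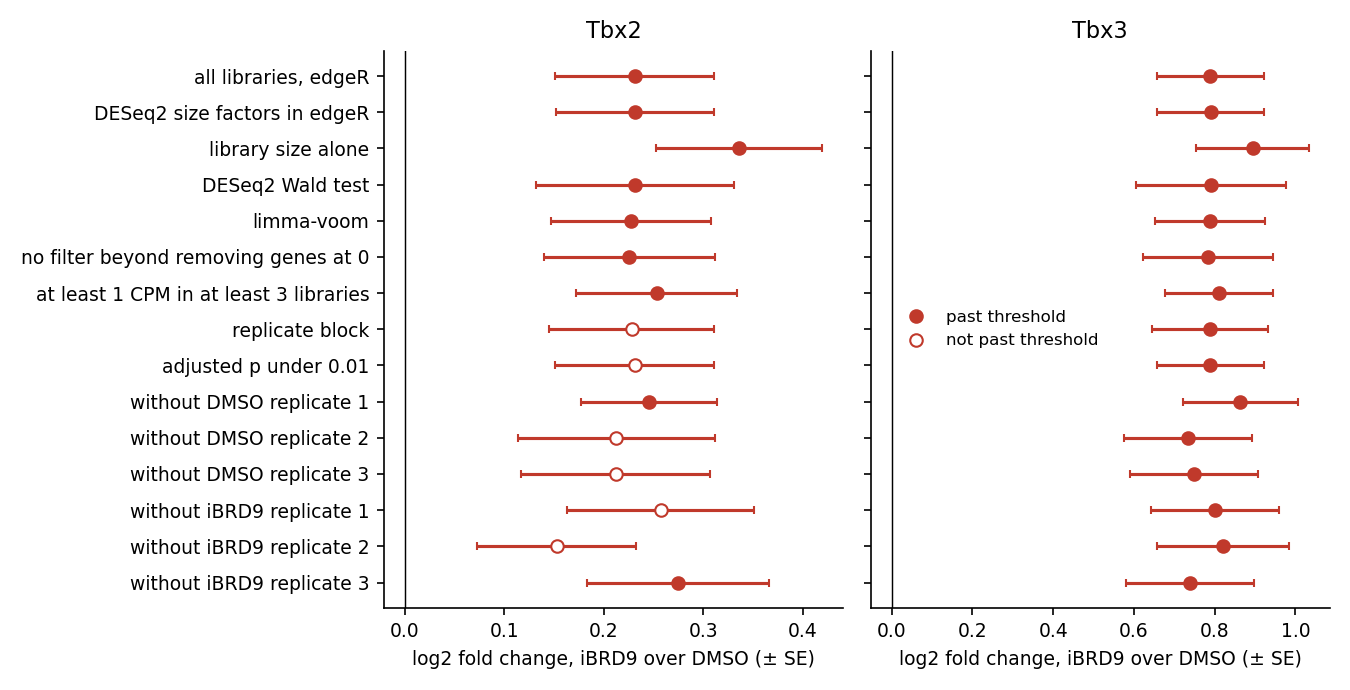
Log2 fold changes of Tbx2 and Tbx3 (x axis, iBRD9 over DMSO, with SE) under the main test and each alternative (y axis); filled dots passed that setting's threshold and open dots did not. Tbx3 passes in all 14 alternatives at 0.73 to 0.89, while Tbx2 stays above 0 and misses the threshold in 6 of them.

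Among 16 genes reported to act upstream of Tbx2 or Tbx3, 15 were tested, of which 6 fell and 2 rose (median log2 fold change -0.10, against 0.01 over all tested genes). That is 53.3% called, against 60.7% of all tested genes. Mitf, the pigment lineage factor reported to drive Tbx2, stood at 1219, 1356 and 1317 CPM with DMSO and 1244, 1179 and 1195 CPM with iBRD9. These groups overlapped, and Mitf was not called (-0.10, edgeR adjusted p = 0.184), although it was called lower without DMSO replicate 1 (-0.16, adjusted p = 0.00374, with 0.979 the highest of its alternatives). Pax3, a paired-box factor of the melanoblast lineage reported to act on Tbx2 in melanoma, fell from 299 ± 32.9 to 187 ± 5.68 CPM (-0.68, SE 0.082, edgeR adjusted p = 0.000232). No iBRD9 library of Pax3 reached the lowest DMSO library, at 263 CPM.

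Reported inducers of Tbx3 went different ways. Tgfb1, the gene of the cytokine TGF-beta 1, rose from 8.29, 7.81 and 8.22 CPM to 12.6, 14.9 and 15.3 CPM (0.81, SE 0.107, edgeR adjusted p = 0.000343). Myc fell from 70.8 ± 11.1 to 35.6 ± 2.65 CPM (-0.99, SE 0.114, edgeR adjusted p = 0.000172; SD, n = 3). The AP-1 subunit gene Jun fell by 0.22 on the log2 scale (edgeR adjusted p = 0.0211), a call lost with library size alone and without DMSO replicate 2, DMSO replicate 3, iBRD9 replicate 1 or iBRD9 replicate 3 (adjusted p of up to 0.127). Its relative Junb was not called, at 3.32 ± 0.633 and 3.23 ± 0.198 CPM (-0.04, and 0.07 with library size alone or 0.12 without DMSO replicate 3). Of the listed retinoic acid receptor genes, Rarg fell (-0.92, SE 0.108) and Rara rose (0.44, SE 0.068), both called. Rarb, named after its values were seen, was not called (-0.62, edgeR adjusted p = 0.0519).

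Of 13 reported partner genes of the TBX2 or TBX3 proteins, mostly parts of repressor complexes, 12 were tested, 4 rose and 0 fell with edgeR (median 0.07). The 33.3% called higher is close to the 29.8% of all tested genes. At an unadjusted p under 0.05 Rcor1 was lower (1 gene), and DESeq2 and limma-voom called 0 lower. Leaving out DMSO replicate 1, or iBRD9 replicate 2, gave 1 lower gene, and leaving out DMSO replicate 2 gave 2 higher genes. Kdm1a, the histone demethylase of the CoREST complex, rose from 134 ± 7.08 to 187 ± 4.80 CPM (0.48, SE 0.059, edgeR adjusted p = 0.000233; SD, n = 3). Ezh2, the methyltransferase of Polycomb complex PRC2, rose by 0.30 on the log2 scale (SE 0.054). Cbx3 (0.28), the gene of the heterochromatin protein HP1-gamma, and the deacetylase gene Hdac2 (0.20) were named after their values were seen. Both lost their call without DMSO replicate 2 (adjusted p of 0.0622 and 0.0598), Cbx3 also without iBRD9 replicate 2 (0.0590) and Hdac2 without iBRD9 replicate 3 (0.0599). The deacetylase gene Hdac1 was not called (315 ± 12.6 and 329 ± 18.1 CPM, 0.06, edgeR adjusted p = 0.412), but library size as the sole scaling gave a call (0.17, edgeR adjusted p = 0.0289; from 0.0289 to 0.733 over its alternatives). Egr1, a zinc finger factor through which TBX2 is reported to hold down Ndrg1, was not called (-0.28, adjusted p = 0.237), but was called lower without iBRD9 replicate 2 (-0.50, adjusted p = 0.0417).

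Most genes that TBX2 or TBX3 is reported to repress were lower with iBRD9. Of 10 such genes 9 were tested, of which 7 fell, 1 rose and 1 was not called, where 30.9% of all tested genes were called lower. Their median log2 fold change was -1.05, against 0.01 over all tested genes. Each of the 7 was called lower under all 14 alternatives. The falls of Tyrp1 and Cdkn1a were known when the genes were listed, so the list is not independent evidence of a direction.

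Tyrp1, the melanin enzyme gene, stood at 5112, 5734 and 5881 CPM with DMSO and 3669, 3574 and 3310 CPM with iBRD9, groups that lie far apart (-0.66, SE 0.080, edgeR adjusted p = 0.000212). Cdkn1a, the gene of the cell cycle inhibitor p21, went from 27.2, 42.6 and 44.9 CPM to 16.5, 15.05 and 15.7 CPM (-1.28, SE 0.174, edgeR adjusted p = 0.000401). DMSO replicate 1 was the low one of its group, still above every iBRD9 library. Because TBX2 is reported to act at the start sites of these 2 genes, the stretch around each start is shown with the core of the T-box site, GTGTGA, in capitals wherever it or its reverse complement TCACAC occurs. The element CATGTG, bound by MITF in pigment gene promoters, and its reverse complement CACATG are in capitals as well. The windows run from 250 bases before to 50 bases after an annotated start, are 5′ to 3′ on the + strand of the gene, and come from RefSeq on build GRCm38.p6.
Tyrp1, chr4:80833963-80834262: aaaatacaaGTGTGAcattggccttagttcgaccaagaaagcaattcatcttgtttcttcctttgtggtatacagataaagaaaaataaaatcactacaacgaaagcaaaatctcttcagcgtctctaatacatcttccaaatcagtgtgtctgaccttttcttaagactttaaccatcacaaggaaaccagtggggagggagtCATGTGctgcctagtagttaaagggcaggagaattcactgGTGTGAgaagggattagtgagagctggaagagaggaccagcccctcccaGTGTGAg
Cdkn1a, chr17:29093519-29093818: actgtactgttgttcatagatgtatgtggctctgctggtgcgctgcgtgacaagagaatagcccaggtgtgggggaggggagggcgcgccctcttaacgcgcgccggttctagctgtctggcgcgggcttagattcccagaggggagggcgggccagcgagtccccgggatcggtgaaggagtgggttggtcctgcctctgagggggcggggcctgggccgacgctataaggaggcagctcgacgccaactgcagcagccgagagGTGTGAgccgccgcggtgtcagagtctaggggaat

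The Tyrp1 window held 3 matches to GTGTGA and 1 to CATGTG, and the Cdkn1a window shown held 1 to GTGTGA, after its start. A further Cdkn1a window at another annotated start held 0. Of the 32851 windows in the table, 14.5% held GTGTGA on either strand, and 50 (0.152%) held at least 3 matches. That threshold equals the count in the Tyrp1 window, so the share is a description and not a test. CATGTG was in 14.2%, and neither element overlaps the other in the Tyrp1 window. Of the 10 reported targets, 6 had windows (8 in all). GTGTGA was in 4 of the 8 windows, from 4 genes: Tyrp1, Cdkn1a, Cdkn2a and Nppa. A match describes the letters only.

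Cdh1, the gene of the epithelial adhesion protein E-cadherin, fell among the reported targets. It stood at 6.38, 6.66 and 6.32 CPM with DMSO and at 1.66, 2.00 and 1.56 CPM with iBRD9 (-1.89, SE 0.147, edgeR adjusted p = 2.65e-05), so the groups were well separated. The gap junction gene Gja1 fell from 10.3 ± 1.51 to 4.12 ± 0.485 CPM (-1.32, SE 0.148; SD, n = 3). Ndrg1, a growth arrest and differentiation gene, fell from 70.4 ± 2.47 to 39.1 ± 0.327 CPM (-0.85, SE 0.059). A further gap junction gene, Gja5 (-1.79, SE 0.272), and the cystatin gene Cst6 (-1.05) also fell and were named after their values were seen. Gja5 passed the filter through its DMSO libraries, with 9 to 16 counts per iBRD9 library. The natriuretic peptide gene Nppa had 0 to 5 counts per library and was not tested.

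Cdkn2a, which encodes both p16 and p19Arf, stood at 47.5, 53.4 and 52.8 CPM with DMSO and 53.7, 59.6 and 59.8 CPM with iBRD9. The highest DMSO library lay just under the lowest iBRD9 library, and the gene was not called (0.17, SE 0.074, edgeR adjusted p = 0.0741). It was called higher with library size alone (0.28, adjusted p = 0.00736) and with a filter at 1 CPM (0.19, adjusted p = 0.0431), and its adjusted p reached 0.224 in the other alternatives. Counts per gene cannot part its 2 products. The adjacent inhibitor gene Cdkn2b, of p15, rose from 2.49 ± 0.179 to 4.19 ± 0.112 CPM (0.75, SE 0.140, edgeR adjusted p = 0.00194).

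**Figure D4:**
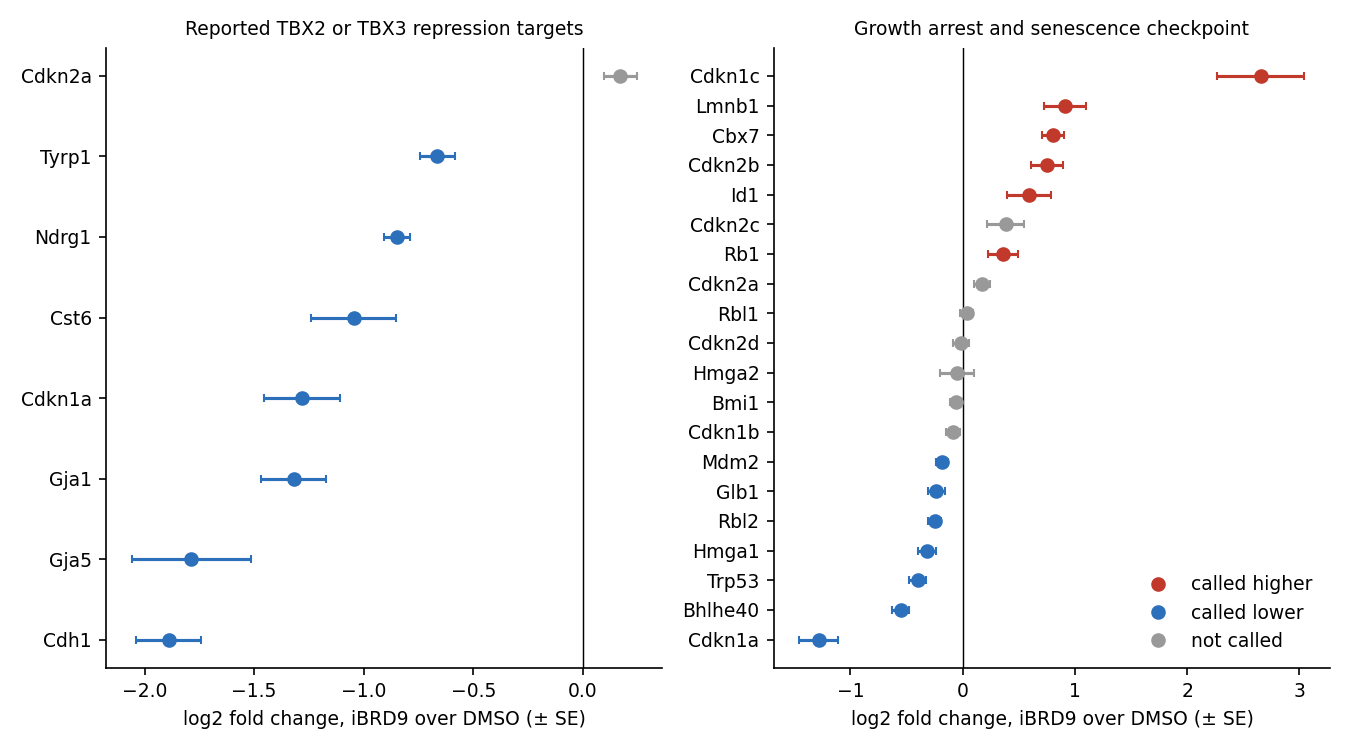
Log2 fold changes (x axis, iBRD9 over DMSO, with SE) of the tested genes in the list of reported TBX2 or TBX3 targets and in the list of arrest and senescence genes; red dots were called higher, blue dots lower and grey dots not called. In the first list, of which 8 of the 9 tested genes are drawn, 7 lie to the left of 0 and were called, and in the second 6 were called higher and 7 lower.

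Genes of growth arrest and the senescence checkpoint went both ways. All 20 were tested, of which 6 rose, 7 fell and 7 were not called (median -0.03). The share called, 65%, is near the background of 60.7%, with 29.8% of all tested genes higher and 30.9% lower. One of those called higher, Cdkn1c, had 3, 2 and 3 counts with DMSO and 25, 19 and 14 with iBRD9 and passed the filter through its iBRD9 libraries. The nuclear lamina gene Lmnb1, whose loss is a mark of senescent cells, stood at 144, 92.2 and 79.8 CPM with DMSO and 182, 205 and 207 CPM with iBRD9 (0.91, SE 0.190, edgeR adjusted p = 0.00344), with DMSO replicate 1 the nearest to the iBRD9 libraries. With no filter on low counts Lmnb1 was not called (edgeR adjusted p = 0.0559; from 5.57e-10 to 0.0559 over its alternatives). The Polycomb gene Cbx7, which holds down the Cdkn2a locus, rose from 30.2 ± 4.06 to 52.6 ± 1.25 CPM (0.80, SE 0.095; SD, n = 3).

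The falls of that list were led by Cdkn1a and by Bhlhe40, a repressor linked to senescence (225 ± 20.7 to 154 ± 2.22 CPM, -0.55, SE 0.073, edgeR adjusted p = 0.000346; SD, n = 3). Trp53, the gene of p53, fell from 71.0 ± 6.72 to 53.8 ± 1.48 CPM (-0.40, SE 0.078, edgeR adjusted p = 0.00241), and the retinoblastoma gene Rb1 rose (0.36, edgeR adjusted p = 0.0452). These 2 were named after their values were seen. The call of Rb1 was lost without DMSO replicate 2 or without any 1 iBRD9 library, with adjusted p of up to 0.145.

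Most secreted factors of senescent cells were scarcely expressed in either group. Of 20 such genes 14 were not tested, with at most 8 counts in any library and 6 of them at 0 in all. Of the 6 tested, 3 fell and 2 rose, where 30.9% of all tested genes were called lower and 29.8% higher, and 1 of the 2 that rose passed the filter through its iBRD9 libraries. The binding protein gene Igfbp5 fell from 5.38 ± 0.476 to 0.940 ± 0.0836 CPM (-2.51, SE 0.169; SD, n = 3), Gdf15 by 2.85 and Vegfa, named after its values were seen, by 0.97 on the log2 scale. Igfbp7, the gene of another such binding protein, rose from 0.951 ± 0.223 to 4.56 ± 0.515 CPM (2.25, SE 0.210, edgeR adjusted p = 5.95e-05).

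The genes whose pattern over the 6 libraries was most like that of Tbx3 were Dedd2, Abcb1b, Adcy1, Rps6ka1 and Malt1, with Pearson correlations of log2 CPM of 0.997 to 0.999 among 1043 genes with a like fold change. Those most like Tbx2 were Nedd1, Taf8, Frat2, Ankrd49 and Dhx33, with correlations of 0.976 to 0.987 among 3220. Over 6 libraries in 2 groups such values are a description, since the groups and the scaling are shared. The log2 fold changes of Tbx2 (0.23) and Tbx3 (0.79) lay too far apart for either to be a candidate for the other. Their absence from each other's list was set by the rule of a like fold change. It therefore does not bear on whether their patterns are alike.

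The cells carried the markers of their labelled type. The summed level of 9 melanocyte markers was 15823 to 17936 CPM with DMSO and 15099 to 16631 CPM with iBRD9, with Dct and Tyrp1 the main part of the sum, and the receptor gene Ednrb had only 1 to 9 counts per library. Of the 8 tested markers 4 were called lower, 1 higher and 3 not called. The share called, 62.5%, is near the 60.7% of all tested genes. The melanin enzyme gene Tyr fell from 537 ± 14.5 to 87.8 ± 3.72 CPM (-2.61, SE 0.060, edgeR adjusted p = 1.44e-07; SD, n = 3). The lineage factor gene Sox10 (-0.92) and the melanosome gene Mlana (-0.62) fell along with Tyrp1, and the melanin enzyme gene Dct rose (0.31). Tyr, Sox10, Mlana and Dct were named after their values were seen. Some markers of other cell types were absent or nearly so: the immune gene Ptprc and the keratinocyte gene Krt5 were at 0, and Krt14 had at most 1 count. Of the 5 fibroblast markers, a cell type in which Tbx2 and Tbx3 are also known to be expressed, 4 were tested. Among these 2 were called higher, where 29.8% of all tested genes were called higher. The sum of all 5 was 51.4 to 63.9 CPM with DMSO and 123 to 136 CPM with iBRD9. Dcn made most of that sum (51.2 ± 7.38 to 120 ± 7.09 CPM; SD, n = 3), and Col1a1 rose from 0.679 ± 0.0336 to 3.52 ± 0.877 CPM, both called higher. Col3a1 had 0 to 7 counts per library, while Lum and Pdgfra were not called. The 5 endothelial markers summed to 1.52 to 1.60 CPM with DMSO and 4.48 to 6.21 CPM with iBRD9, mostly from Kdr. The sum of 5 immune markers was 6.12 to 7.77 CPM with DMSO and 5.45 to 6.20 CPM with iBRD9, with Cd68 called lower and Csf1r, which passed the filter through its iBRD9 libraries, called higher. Of the 5 keratinocyte markers Krt10 alone was tested, and it was not called (0.02, edgeR adjusted p = 0.899). The part of other cell types in the values of Tbx2 and Tbx3 was not tested.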

How the data were processed

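The values used are read counts for each Ensembl gene, deposited by the authors without normalization and made from poly(A) RNA libraries. CASAVA 1.8.2, Bowtie2 2.4.5 and GRCm39 are named, per the submitters' processing notes. How reads were assigned to genes, with which annotation and strand setting, is not given in the sources used here. Columns named for vehicle were matched to the DMSO samples by treatment and replicate number. Symbols were found for 34490 of 35275 IDs with GENCODE M21, an annotation of GRCm38, which also served for gene order and exon lengths; lengths from another release would move every per-kilobase level.

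Genes were kept by filterByExpr in edgeR 4.0.16 (minimum count 10), scaled with TMM and tested with the robust quasi-likelihood F-test on all 6 libraries, with treatment as the sole term. The test was checked on simulated counts in which few genes changed, as many up as down, with the same relative spread for every gene. Far more genes were called in these data, and DMSO replicate 1 stood apart, so the check does not cover those conditions. Standard errors are the log2 fold change over the square root of F, and tests are two-sided. The labels describe the samples of a treatment as independent. No replicate pair was a duplicate (chi-square per degree of freedom of 1.93 or more).

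The members and gene lists were chosen with earlier results of these data known. The text names the members, all T-box genes, 15 fixed genes, up to 2 higher and 2 lower called genes per list with mean log2 CPM of at least 1, adjacent genes, and the 5 most alike genes per member, those with mean log2 CPM of at least 1 and a log2 fold change within 0.25 of the member. Some listed genes are counted with their list but not reported here by name. Markers of 5 cell types were checked. Alternatives were DESeq2 size factors, library size alone, DESeq2 1.42.0, limma-voom (limma 3.58.1), no filter, a filter at 1 CPM in 3 libraries, a stricter adjusted p (under 0.01), a block for the replicate number, and each library left out in turn. R 4.3.3 and matplotlib 3.10.9 were used.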

Additional observations from a re-analysis of the deposited data

How the results depend on the processing

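Tbx3 kept its direction and its call in all 14 alternatives, and Tbx2 kept its direction in all 14 and its call in 8. Tbx2 missed the threshold with the replicate number as a block (log2 fold change 0.23) and at the stricter adjusted p of 0.01 (0.23), and with each library left out in turn it had 0.15 to 0.27. The replicate numbers may not pair the samples: deviations of same-numbered libraries from their group means correlated at 0.118, 0.060 and 0.025 across genes, and not every library correlated best with its own number. The replicate block gave 3920 genes called higher and 4017 lower, and moved the log2 ratio of Tbx2 to Tbx3 counts not at all (-0.56, exact sign-flip p = 0.25, the smallest possible with 3 pairs). With library size alone the list counts were 3 lower arrest genes, 2 higher reported targets and 4 higher upstream genes; the filter at 1 CPM gave 2 higher reported targets. At an adjusted p under 0.01, 2 partner genes and 3 T-box genes were called higher. Leaving out each library gave 2 to 5 higher and 0 to 1 lower partner genes, and 3 to 5 higher T-box genes. Mitf changed sign with library size alone (0.0019), and Junb with library size alone (0.069) and without DMSO replicate 3 (0.12, with -0.13 to 0.12 over all libraries left out). Over 41 other named genes, 539 values kept direction and call, 21 lost the call, 10 gained one and 3 changed sign. Tbx6 gave no value with the filter at 1 CPM. Unless stated, the cause was not tested.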

Other observations

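DMSO replicate 1 did not differ from the other DMSO libraries by the same amount in every gene described here; the genes in this comparison were chosen after their values were seen. On the log2 scale, its Tbx2 level lay 0.279 of the way from the mean of DMSO replicates 2 and 3 to the iBRD9 mean, and its Tbx3 level 0.278 of the way. For Lmnb1 the fraction was 0.618, for Cdkn1a 0.465 and for Tyrp1 0.254. For the cyclin-dependent kinase inhibitor gene Cdkn2c it was 1.03, so that this library stood level with those given iBRD9. Cdh1 had a fraction of 0.013, and Myc one of -0.44, on the far side of the other DMSO libraries. Cdkn2c was not called with all libraries (log2 fold change 0.38, edgeR adjusted p = 0.0762) and was called higher without DMSO replicate 1 (0.62, edgeR adjusted p = 9.19e-10; from 9.19e-10 to 0.252 over its alternatives). Without that library Tbx2 had a log2 fold change of 0.25 (edgeR adjusted p = 0.00268) and Tbx3 one of 0.86 (edgeR adjusted p = 8.44e-06).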
